A study of Mus musculus with 6 samples.

Results

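The mRNAs of 10 metabolic nuclear receptors of the liver were followed in cultured fetal hepatocytes: Ppara, Nr1h3, Nr1h4, Nr0b2, Nr5a2, Rxra, Nr1i2, Nr1i3, Nr2f2 and Nr3c1. They were chosen by name, and each is given by the brightest probe set that the array annotation assigns to that gene alone. They are 10 of 18193 genes measured this way, and all 10 passed the filter on dim values. The hepatocytes came from mouse embryos at E16.5. Cnot3KO cells carried the floxed allele of Cnot3 and a Cre transgene under the Alb promoter, which acts in the hepatic lineage and leaves cells outside it untargeted. Loss of Cnot3 was partial in the livers that the cells came from and became efficient during culture, as the study describes it. Control cells are called wild type in the labels, although the methods count as controls littermates without Cre, without the floxed allele or with 1 intact allele, and which of these was used is not stated. Cells of both genotypes had been cultured with oncostatin M and dexamethasone, a synthetic glucocorticoid that is itself a ligand of Nr3c1. They were taken before (0 h) or 6 or 12 h after addition of actinomycin D (ActD), which blocks transcription, with 1 array for each genotype and time.

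Nuclear receptors are transcription factors that a small lipophilic ligand switches on, and in the liver they let fatty acids, oxysterols, bile acids, drugs and steroid hormones set the expression of the enzymes that handle them. Most of the metabolic ones bind DNA as a heterodimer with Rxra, at copies of a short half-site, and recruit corepressors or coactivators. The bile acid receptor Nr1h4 (FXR) induces Nr0b2 (SHP), a receptor without a DNA-binding domain, which in turn restrains Nr5a2 (LRH-1) at genes of bile acid synthesis. Cnot3 belongs to the Cnot deadenylase, which removes poly(A) tails as the first step of mRNA decay, and the ActD series asks how quickly an mRNA is lost once no more is made.

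Values are intensities of Affymetrix probe sets, which hold no level comparable between genes, and differences are given in log2. The median intensity was between 69.7 and 72.4 and the 20th percentile between 19.7 and 22.4 on the 6 arrays. No array had a replicate, and nothing states how many embryos gave the cells. A difference at a single time therefore has no error of its own. Separate probe sets of 1 gene differed with an SD, over 4117 genes, of 0.24 for the 0 h genotype difference and of 0.42 for the 12 h difference in change. All arrays were scaled to a like distribution, so a change after ActD is relative to the typical mRNA. The Cnot3 values at 0, 6 and 12 h were 174, 174 and 146 in Cnot3KO cells, against 296, 214 and 158 in control cells. Cnot3 was 1.70-fold lower in Cnot3KO cells at 0 h without passing limma's genotype test (adjusted p = 0.182), and it is unknown whether its probes fall within the sequence that Cre removes. Hepatocyte markers were present in both genotypes, with a median genotype difference of -0.06 over 9 genes at 0 h.

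Before ActD no receptor differed between the genotypes by more than 1.5-fold in its brightest probe set (further sets of Ppara, Rxra, Nr2f2 and Nr3c1 did), while the change over 12 h of ActD was over 1 higher on the log2 scale in Cnot3KO than in control cells for 5 of the 10. At 12 h the bile acid receptor Nr1h4 was 4.10-fold, the glucocorticoid receptor Nr3c1 2.95-fold and Nr5a2, a regulator of bile acid synthesis, 2.90-fold higher in Cnot3KO cells. For Nr5a2 this held for the brightest probe set only, and its other sets gave 12 h differences of 0.25, 0.03 and -0.44 (log2). Nr1h3 and Nr1i3 differed between the genotypes by at most 1.16-fold at any time, and Nr0b2 by at most 1.32-fold. These differences in change did not pass the test across all genes.

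**Figure D1:**
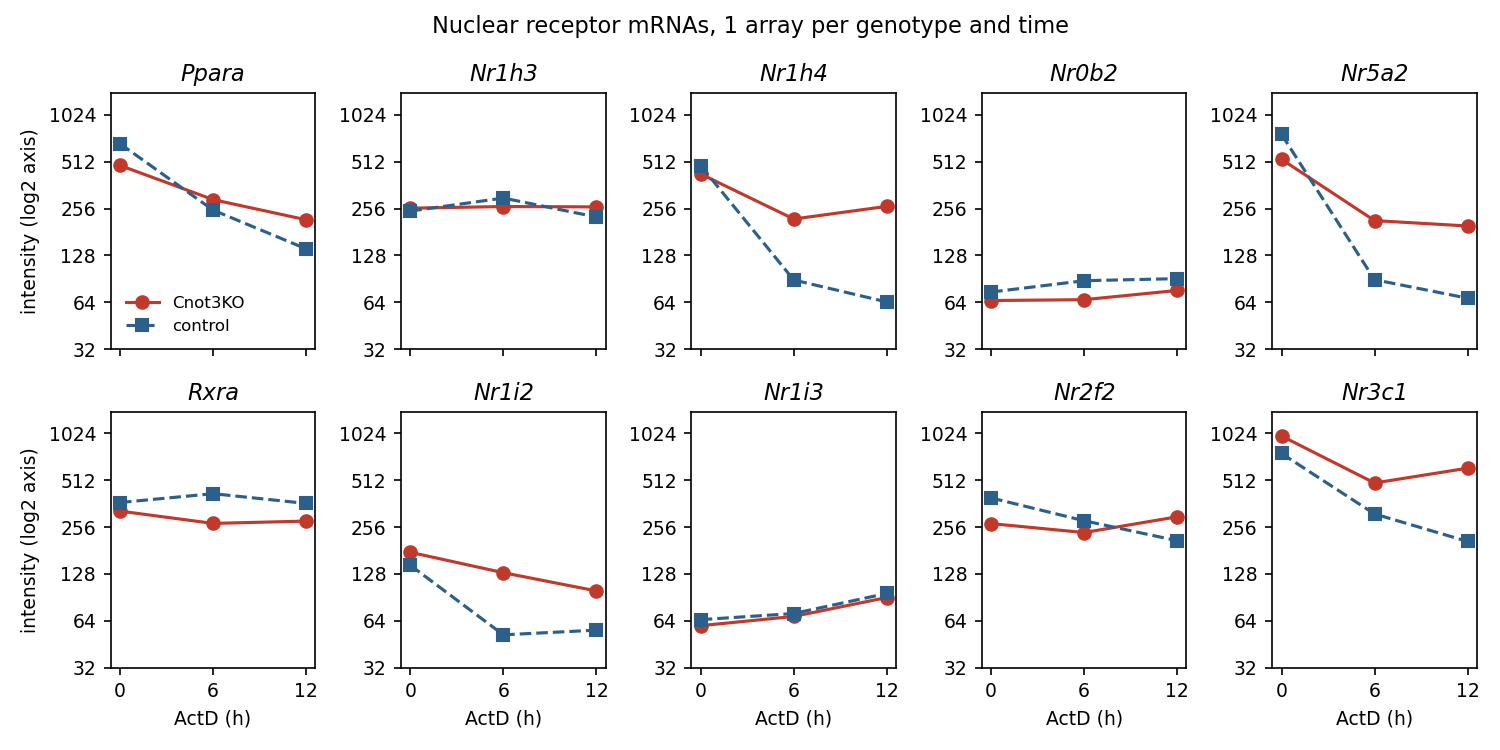
Intensity (log2 axis) of each of the 10 receptor mRNAs against hours of ActD, with Cnot3KO cells as red circles on solid lines and control cells as blue squares on dashed lines, 1 array per point. At 12 h the Cnot3KO points of Nr1h4, Nr5a2 and Nr3c1 lie above the control points by 2.04, 1.54 and 1.56 (log2), while the lines of Nr1i3 nearly coincide.

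By the brightest probe sets, the bile acid group held the receptors with the largest changes and one with almost none. Nr1h4 senses bile acids and protects the hepatocyte from their excess. Its intensity was 426, 219 and 264 in Cnot3KO cells at 0, 6 and 12 h, against 481, 89.1 and 64.4 in control cells. Both genotypes started close together, and at 6 and 12 h both Cnot3KO values lay above both control values. Over 12 h Nr1h4 was 1.61-fold lower in Cnot3KO cells and 7.48-fold lower in control cells, a difference in change of 2.21 ± 0.83 (SE of the fit on hours). This difference had an unadjusted p of 0.0371 in limma's test and did not pass after adjustment (adjusted p = 0.256). The fit takes log2 intensity as a straight line in hours, so its SE and p rest on how far the 6 h values lie from that line. A loss mostly in the first 6 h, as in control cells here, raises both, and variation between embryos is not measured. Nr1h4 rested on a single probe set.

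Nr5a2 binds DNA as a monomer and keeps the genes of bile acid synthesis active. Its intensity was 529.7, 214 and 198 in Cnot3KO cells, against 765, 89.5 and 68.1 in control cells. The Cnot3KO value was thus the lower one at 0 h, by 1.44-fold, and the higher one at 6 and 12 h. The change over 12 h was -1.42 in Cnot3KO cells and -3.49 in control cells, and the difference of 2.07 ± 1.03 did not pass (limma, adjusted p = 0.343). The loss itself, taken over both genotypes, passed the limma test (-2.46 ± 0.50, adjusted p = 0.0474). It no longer passed without the filter on dim values, with a stricter filter or with a pseudocount (adjusted p between 0.0503 and 0.0593), and with the mean of all Nr5a2 probe sets it was -0.97 (limma, adjusted p = 0.0359). The second brightest Nr5a2 probe set had intensities of 277, 100.4 and 107 in Cnot3KO cells and of 268, 66.7 and 89.6 in control cells. There the difference in change was 0.21, and the other sets gave 0.20 and -0.33. The dimmest set changed by 0.26 in Cnot3KO and 0.60 in control cells over 12 h, so both the loss of Nr5a2 and its difference depended on the probe set.

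Nr0b2, the gene that Nr1h4 induces, had intensities of 65.8, 66.6 and 76.3 in Cnot3KO cells, against 74.6, 88.1 and 90.9 in control cells. It lay near the array medians, its Cnot3KO value was the lower one at each time, and its change over 12 h relative to the typical mRNA was 0.22 in Cnot3KO and 0.29 in control cells. The genotype difference over the 3 times was -0.28 ± 0.14 and did not pass (limma, adjusted p = 0.219). The stretches of 250 bases upstream of the annotated starts of Nr1h4, Nr5a2 and Nr0b2 are shown. These genes were picked because the first 2 changed most in their brightest probe sets and the third is a textbook target of both. The stretches are from RefSeq promoters of build GRCm38.p6, in which 9 of the 10 receptors were matched by symbol. The Nr1h4 stretch lies at chr10:89506659-89506908 and those of the 2 Nr5a2 starts at chr1:136953631-136953880 and chr1:136960449-136960698, all on the minus strand, and the Nr0b2 stretch lies at chr4:133553126-133553375 on the plus strand. Each is written 5′ to 3′ on the strand of its gene and ends at the base before the start. Capitals mark matches on either strand to the receptor half-site AGGTCA, to the extended half-site CAAGGCCA of the kind that Nr5a2 binds, and to the TATA motif TATAAA.
Nr1h4: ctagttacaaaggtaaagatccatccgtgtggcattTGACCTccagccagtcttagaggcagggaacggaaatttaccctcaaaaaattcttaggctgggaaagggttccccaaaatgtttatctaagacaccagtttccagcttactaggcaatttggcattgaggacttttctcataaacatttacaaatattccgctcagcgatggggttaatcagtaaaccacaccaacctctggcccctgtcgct
Nr5a2, start 1: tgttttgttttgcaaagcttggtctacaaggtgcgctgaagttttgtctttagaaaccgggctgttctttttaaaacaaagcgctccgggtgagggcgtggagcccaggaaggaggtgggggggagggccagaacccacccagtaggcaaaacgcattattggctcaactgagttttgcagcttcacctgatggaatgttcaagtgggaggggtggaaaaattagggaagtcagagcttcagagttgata
Nr5a2, start 2: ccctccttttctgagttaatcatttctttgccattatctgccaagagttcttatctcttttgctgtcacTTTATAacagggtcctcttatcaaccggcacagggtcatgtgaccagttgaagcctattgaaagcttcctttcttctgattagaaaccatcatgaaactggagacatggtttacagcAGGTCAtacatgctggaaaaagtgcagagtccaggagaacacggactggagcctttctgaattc
Nr0b2: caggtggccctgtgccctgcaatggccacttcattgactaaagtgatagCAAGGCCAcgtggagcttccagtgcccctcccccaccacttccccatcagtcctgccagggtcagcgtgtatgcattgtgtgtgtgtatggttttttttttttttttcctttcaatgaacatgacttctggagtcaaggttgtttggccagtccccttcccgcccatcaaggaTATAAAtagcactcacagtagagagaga
In the Nr1h4 stretch AGGTCA was found on the opposite strand (capitals read TGACCT) at -214 to -209, counted from the start. The first Nr5a2 start had no match, and the second had AGGTCA at -64 to -59 and TATAAA on the opposite strand (capitals read TTTATA) at -181 to -176. Nr0b2 had CAAGGCCA at -201 to -194 and TATAAA at -28 to -23. Of 32851 promoters of the same length 14% held AGGTCA, 1.99% CAAGGCCA and 12.4% TATAAA, and none of the 3 motifs lies within another. The matches describe letters only, and no binding was measured.

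Ppara, which senses fatty acids and drives their oxidation, lost mRNA in both genotypes. Its intensity was 484, 292 and 217 in Cnot3KO cells at 0, 6 and 12 h, against 667, 250.2 and 141 in control cells. As for Nr5a2, the Cnot3KO value was lower at 0 h (1.38-fold) and higher at 6 and 12 h. The loss over both genotypes passed the limma test (-1.70 ± 0.28, adjusted p = 0.0339), and did so under all 7 alternatives (adjusted p between 0.00486 and 0.0437). The change over 12 h was -1.16 in Cnot3KO and -2.24 in control cells. Their difference of 1.08 ± 0.35 had an unadjusted p of 0.0225 and did not pass (limma, adjusted p = 0.227). Both other Ppara probe sets gave less loss in Cnot3KO cells as well, by 1.62 and 0.43. One of them differed more at 0 h, with intensities of 373 in Cnot3KO and 780.1 in control cells, a difference of -1.06.

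Nr1h3 (LXRα), the oxysterol receptor that turns on cholesterol export and lipogenesis, was the flattest of the 10. Its intensity was 257, 264 and 262 in Cnot3KO cells, against 247, 299 and 226 in control cells. The groups overlapped, and the genotype difference changed sign between times (0.06, -0.18 and 0.22 at 0, 6 and 12 h). Its difference in change was 0.16 as deposited and turned to -0.06 when the arrays were centred on Gapdh (limma, adjusted p = 0.845 and 0.914). Nr1h3 is also made by macrophages, whose 12 listed markers summed to between 13669 and 15651 in Cnot3KO and between 15336 and 18255 in control cells. None of these markers was below the 20th percentile on all arrays, and their part in the Nr1h3 values was not tested.

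Rxra, the common partner, differed between its probe sets. The brightest had intensities of 324, 270.2 and 279.6 in Cnot3KO cells, against 368, 419 and 363 in control cells. By this set the Cnot3KO cells were lower at every time without overlap (-0.40 ± 0.16, limma, unadjusted p = 0.0447 and adjusted p = 0.140), and neither genotype lost Rxra relative to the typical mRNA (-0.21 in Cnot3KO and -0.02 in control cells). A second set, also above the array medians, had intensities of 371, 209.8 and 199.7 in Cnot3KO cells and of 645, 267 and 206 in control cells. That set gave a loss of -0.89 in Cnot3KO and -1.65 in control cells and a 0 h difference of -0.80. Its loss over both genotypes passed the limma test (-1.27, adjusted p = 0.0326), while that of the brightest set did not (-0.12, adjusted p = 0.684). Both sets put Rxra lower in Cnot3KO cells at each time, but they disagreed on whether its mRNA was lost after ActD.

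The receptors of foreign compounds behaved unlike each other. Nr1i2 (PXR), which drugs and steroids activate and which induces their breakdown, had intensities of 176, 130.45 and 99.7 in Cnot3KO cells, against 146, 52.1 and 55.8 in control cells. The Cnot3KO value was the higher one at each time, by 1.21-fold, 2.50-fold and 1.78-fold. The genotype difference over the 3 times was 0.81 ± 0.22, the smallest p of the 10 receptors in this test, and did not pass (limma, unadjusted p = 0.0119, adjusted p = 0.0762). The control values at 6 and 12 h were below the median but above the 20th percentile of their arrays. The second Nr1i2 probe set gave the same order at each time, with differences of 0.26, 0.92 and 1.28.

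Nr1i3 (CAR), the phenobarbital-responsive relative of Nr1i2, had intensities of 59.7, 68.4 and 90.4 in Cnot3KO cells, against 65.2, 71.4 and 96.0 in control cells. Its change over 12 h was 0.60 in Cnot3KO and 0.56 in control cells, and over both genotypes it did not pass the limma test (adjusted p = 0.0909). The genotypes differed by no more than 0.13 at any time. Its values were above the array median on 2 of the 6 arrays.

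Nr3c1, the glucocorticoid receptor, had the ligand dexamethasone present in both genotypes. Its intensity was 983, 491 and 611 in Cnot3KO cells, against 759, 311 and 207 in control cells. The Cnot3KO value was higher at each time, by 0.37, 0.66 and 1.56 on the log2 scale, while the ranges over all times overlapped. Over the 3 times the difference was 0.86 ± 0.25 (limma, unadjusted p = 0.0147, adjusted p = 0.0816). The change over 12 h was -0.69 in Cnot3KO and -1.87 in control cells, and their difference of 1.19 ± 0.57 did not pass (limma, adjusted p = 0.330). The 3 other bright probe sets, above the array median on at least 4 of the 6 arrays, gave differences in change between 0.96 and 2.09. The 2 dim sets, below it on all 6, gave -0.25 and -0.13. In control cells at 6 and 12 h, 1 of the bright sets fell to 43.1 and 32.8 and another to 36.7 and 25.3, below the medians. At 0 h the bright sets disagreed in direction, with differences between -0.21 and 0.80.

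Nr2f2 (COUP-TFII) is an orphan receptor that antagonises several of the others at shared DNA sites and is also a marker of venous endothelium and mesenchyme. Its intensity was 269, 236 and 298 in Cnot3KO cells, against 394, 281 and 209 in control cells. The Cnot3KO value was lower at 0 and 6 h and higher at 12 h. Relative to the typical mRNA it changed by 0.15 over 12 h in Cnot3KO and by -0.91 in control cells. The difference of 1.06 ± 0.33 had the smallest unadjusted p of the 10 receptors, 0.0183, and did not pass (limma, adjusted p = 0.216). Its 5 other probe sets were below the array medians throughout. The 12 endothelial markers summed to between 649 and 1379 in Cnot3KO and between 1006 and 2031 in control cells. At 0 h 2 of 12 were over 1.5-fold lower and none over 1.5-fold higher, where 2.99% of all genes were lower and 6.87% higher. The 13 stromal markers kept had a median 0 h difference of -0.27, also with 2 lower and none higher. Their part in the Nr2f2 difference was not tested, and in these bulk samples fewer cells of a type and less RNA per cell cannot be told apart.

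Set against all genes, the 10 receptors had a median difference of -0.18 before ActD, where all genes had one of 0.03. None of the 10 was over 1.5-fold higher in Cnot3KO cells, where 6.87% of 16110 genes were, and none was over 1.5-fold lower, where 2.99% were. The receptors ranged from -0.55 (Nr2f2) to 0.37 (Nr3c1). With the arrays centred on Gapdh, Nr5a2 and Nr2f2 passed 1.5-fold as lower in Cnot3KO cells (-0.60 and -0.61), and the split over all genes was then 826 higher and 652 lower in place of 1107 and 482. The median of all genes moved from 0.03 to -0.03 under this centring, and that of the control change over 12 h from 0.15 to 0.34.

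In the limma test over the 3 times no receptor passed, where 0.703% of 16499 genes passed as higher and 0.285% as lower in Cnot3KO cells. With 2 residual degrees of freedom this p measures how alike the genotype difference was at the 3 times and not how embryos vary. At an unadjusted p under 0.05, Nr1h4, Nr1i2 and Nr3c1 were higher (3 of 10, beside 22.4% of all genes) and Rxra lower (1 of 10, beside 11.0%). The receptors' median difference was -0.18 at 0 h, 0.08 at 6 h and 0.56 at 12 h, where all genes had 0.03, -0.05 and -0.03. Without the 0 h arrays 4 receptors passed as higher in Cnot3KO cells (limma). These were Nr1h4 (1.67, adjusted p = 2.97e-05), Nr5a2 (1.40, adjusted p = 6.0e-05), Nr1i2 (1.08, adjusted p = 0.000708) and Nr3c1 (1.11, adjusted p = 0.00128). In that fit 5809 of 16451 genes passed, 4002 as higher and 1807 as lower in Cnot3KO cells. It leaves 1 residual degree of freedom, so its p rests mostly on the variance that limma borrows from all genes. Over all 10 alternatives the adjusted p reached 0.476 for Nr1h4, 0.677 for Nr5a2, 0.429 for Nr1i2 and 0.374 for Nr3c1.

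**Figure D2:**
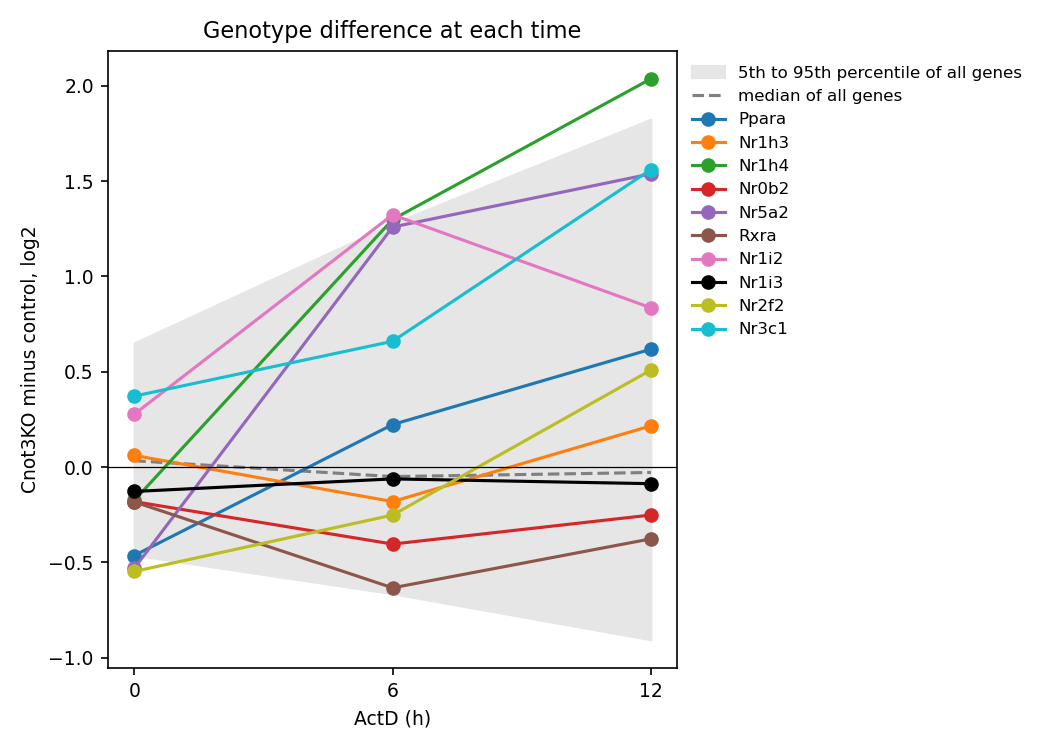
Cnot3KO minus control intensity (log2) of each receptor at 0, 6 and 12 h of ActD, with the 5th to 95th percentile of all 16499 genes shaded and their median dashed. The receptors lie between -0.55 and 0.37 at 0 h and between -0.38 and 2.04 at 12 h. Nr2f2, Nr5a2 and Ppara lie just below the shaded range at 0 h, Nr1i2 and Nr1h4 just above it at 6 h and Nr1h4 above it at 12 h.

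After ActD, 2 of the 10 receptors passed the limma test as lower at 12 h over both genotypes (Ppara and Nr5a2), where 4.53% of all genes did, and none passed as higher, where 2.24% did. In Cnot3KO cells these same 2 were over 2-fold lower at 12 h than at 0 h, where 4.38% of all genes were. In control cells 5 were (Ppara, Nr1h4, Nr5a2, Nr1i2 and Nr3c1), where 15.1% of all genes were. The median change over 12 h was -0.45 in Cnot3KO and -1.15 in control cells for the receptors, and 0.08 in Cnot3KO and 0.15 in control cells for all genes. The loss in control cells fell mostly in the first 6 h for Nr1h4 (-2.43), Nr5a2 (-3.10) and Nr1i2 (-1.48), which changed by -0.47, -0.39 and 0.10 in the next 6 h. Their control values at 12 h (64.4, 68.1 and 55.8) lay below the median of that array (72.4), which leaves less room for a later loss to show. In Cnot3KO cells the same 3 mRNAs changed by -0.96, -1.31 and -0.43 in the first 6 h.

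The change over 12 h was over 1 higher on the log2 scale in Cnot3KO than in control cells for 5 receptors (Ppara, Nr1h4, Nr5a2, Nr2f2 and Nr3c1), where 13.0% of all genes were. At an unadjusted p under 0.05 the limma test gave Ppara, Nr1h4 and Nr2f2 (3 of 10), where 12.8% of all genes lost less in Cnot3KO cells. This p rests on how far the 6 h values lay from a straight line in hours and not on how embryos vary. After adjustment 0 of 16499 genes passed in limma (0%), while 2924 had an unadjusted p under 0.05, and no receptor passed under any alternative that was fitted. The median difference in change was 0.81 for the receptors and -0.04 for all genes. Less loss in Cnot3KO cells was common among mRNAs that control cells lost. Of the 2485 genes over 2-fold lower at 12 h in control cells, 95.9% lost less in Cnot3KO cells, with a median difference of 1.22. Since the control values chose these genes, errors in them push that difference up.

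**Figure D3:**
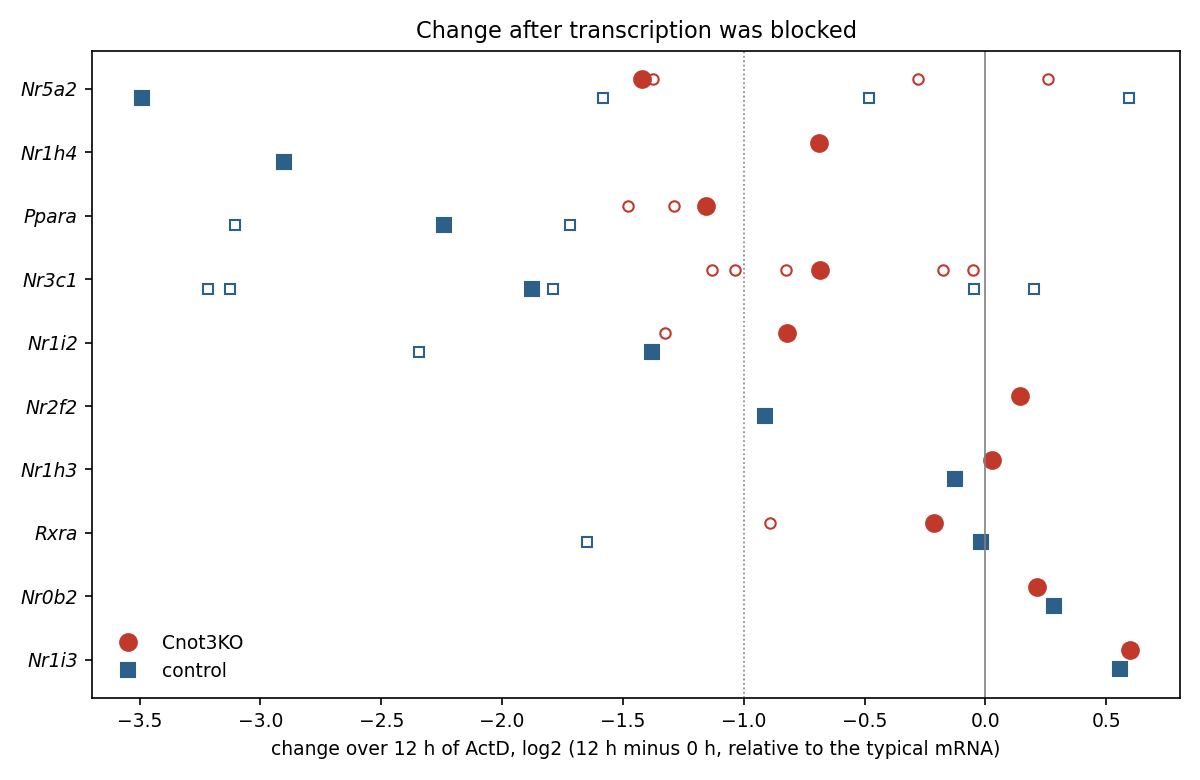
Change of each receptor mRNA over 12 h of ActD (log2, 12 h minus 0 h, relative to the typical mRNA), with Cnot3KO cells as red circles above control cells as blue squares. Filled symbols are the probe set used, open symbols other sets of the gene above the 20th percentile on all 6 arrays, and the dotted line marks 2-fold lower. The filled Cnot3KO symbols lie between -1.42 and 0.60 and the filled control symbols between -3.49 and 0.56. Open control symbols lie furthest from the filled ones for Nr5a2, Nr3c1 and Rxra, and some also lie apart for Nr1i2 and Ppara.

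Of 39 other nuclear receptors listed, 34 had a probe set of their own and 29 were kept at 0 h, of which 2 were over 1.5-fold higher (beside 6.87% of all genes) and none lower in Cnot3KO cells. Pparg, the adipogenic relative of Ppara, had intensities of 253, 152 and 138 in Cnot3KO cells and of 127, 86.2 and 71.8 in control cells. It was higher at each time (0.92 ± 0.14) and just missed the threshold (limma, adjusted p = 0.0526). Nr3c2, the mineralocorticoid receptor, was 407 in Cnot3KO and 231 in control cells at 0 h, and 55.3 in Cnot3KO and 51.6 in control cells at 12 h. Its loss over both genotypes passed the limma test (-2.52 ± 0.23, adjusted p = 0.0153), with changes of -2.88 in Cnot3KO and -2.16 in control cells. Pparg (-0.85), Rora (-1.92) and Hnf4a (-1.17), the master regulator of hepatocyte genes, also passed as lower at 12 h (limma, adjusted p = 0.0469, 0.0298 and 0.0305). Over the 30 kept, 3 were over 2-fold lower in Cnot3KO and 7 in control cells (beside 4.38% of all genes in Cnot3KO and 15.1% in control cells). Their median difference in change was -0.10, beside 0.81 for the 10 receptors, and it was over 1 for 6 of the 30, beside 13.0% of all genes. Dim sets among the 30, such as that of Esr1 (19.5 in control cells at 0 h), leave little room for a loss.

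Coactivators and corepressors are the partners through which the receptors act. Of 30 listed 28 were measured, of which 3 were over 1.5-fold higher and 2 lower in Cnot3KO cells at 0 h (beside 6.87% and 2.99% of all genes). The histone demethylase Kdm1a was 3098 in Cnot3KO and 1952 in control cells, and 2794 in Cnot3KO and 788 in control cells at 12 h. Kat2b, a histone acetyltransferase, had the opposite order, with 1601 in Cnot3KO and 2476 in control cells at 0 h and 669.7 in Cnot3KO and 2141 in control cells at 12 h. Ncoa3, a p160 coactivator, was 362 in Cnot3KO and 214 in control cells at 0 h. None of these passed over the 3 times (limma, adjusted p = 0.0539 for Kdm1a, 0.0543 for Kat2b and 0.0571 for Ncoa3). Of the 28, 9 were over 2-fold lower at 12 h in Cnot3KO and 16 in control cells, beside 4.38% of all genes in Cnot3KO and 15.1% in control cells. The limma test called 7 as lower at 12 h, beside 4.53% of all genes. The median difference in change over the 28 was 0.49. It was over 1 for 11 of them, beside 13.0% of all genes, and under -1 for 1. Ppargc1a (PGC-1α), the coactivator of Ppara in fasting, was 418, 150.2 and 161 in Cnot3KO cells, against 370, 65.9 and 41.5 in control cells. The p160 coactivator Ncoa2 was 835, 119.6 and 83.1 in Cnot3KO cells, against 828, 71.6 and 29.4 in control cells. Crebbp, the acetyltransferase that they recruit, was 1371, 436 and 485 in Cnot3KO cells, against 1341, 199 and 100.4 in control cells. All 3 started level and ended higher in Cnot3KO cells, and their losses over both genotypes passed (limma, adjusted p = 0.0392, 0.0153 and 0.0419). The other 4 that passed showed smaller differences in change, of 0.33 (Ncoa1), 0.44 (Tbl1xr1), 0.05 (Tbl1x) and -0.13 (Lcor), and the corepressor Lcor was lower in Cnot3KO cells at each time (2773, 1328 and 1297 in Cnot3KO cells, against 3938, 2198 and 2015 in control cells).

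Chaperones that hold Nr3c1 ready for its ligand had a median 0 h difference of 0.30 over 11 genes. Dnajb1, an HSP40 co-chaperone, had intensities of 2484, 3273 and 4293 in Cnot3KO cells, against 949, 1082 and 1103 in control cells. The groups did not overlap, and Dnajb1 passed as higher in Cnot3KO cells (1.65 ± 0.17, limma, adjusted p = 0.0499). This call and the other calls over the 3 times described here were lost under 5 alternatives in which limma called 0 of all genes (no filter, a stricter filter, a pseudocount, and leaving out the 6 h or the 12 h arrays). Fkbp4, the immunophilin that carries Nr3c1 to the nucleus, was 2853 in Cnot3KO and 1939 in control cells at 0 h and did not pass (limma, adjusted p = 0.0647). Fkbp5, which lowers the affinity of Nr3c1 for its ligand and is itself a glucocorticoid target, was 3098, 2385 and 1455 in Cnot3KO cells, against 3726, 2845 and 1470 in control cells (-0.18 ± 0.14, limma, adjusted p = 0.406).

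In 4 of 6 target lists more genes were lower than higher in Cnot3KO cells by over 1.5-fold before ActD, where 6.87% of all genes were higher and 2.99% lower. Of 25 measured Ppara targets 1 was over 1.5-fold higher and 4 were lower, and none passed over the 3 times in either direction (limma). At an unadjusted p under 0.05 limma gave 4 of these targets as higher and 7 as lower, beside 22.4% and 11.0% of all genes. Fabp1, the fatty acid carrier of hepatocytes, was 2308 in Cnot3KO and 4133 in control cells at 0 h. Pdk4, the kinase that spares glucose, was 203 in Cnot3KO and 388 in control cells, and Acot1, an acyl-CoA thioesterase, 1083 in Cnot3KO and 1845 in control cells. All 3 were among the 4 lower ones at 0 h. Cpt1a, the gatekeeper of mitochondrial fatty acid oxidation, passed as lower at 12 h of ActD over both genotypes (-0.96, limma, adjusted p = 0.0372).

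Of 20 Nr1h4 targets 1 was higher and 7 were lower by over 1.5-fold at 0 h (beside 6.87% and 2.99% of all genes), with a median of -0.16. This list mixes genes that Nr1h4 induces, such as Nr0b2, with genes that it restrains, such as Slc10a1. The count therefore gives no direction of receptor activity. Slc10a1, the NTCP importer of bile acids that Nr1h4 activity restrains, was 231, 133 and 119.8 in Cnot3KO cells, against 759.7, 426 and 342 in control cells. It was lower at each time without overlap and was the 1 target of this list to pass over the 3 times (-1.64 ± 0.14, limma, adjusted p = 0.0499), a call lost under the same 5 alternatives. Cyp7a1, the rate-limiting enzyme of bile acid synthesis, which Nr0b2 restrains and Nr5a2 and Nr1h3 activate, was 67.7, 27.5 and 25.2 in Cnot3KO cells, against 143, 32.8 and 36.0 in control cells. Cyp8b1, which sets the share of cholic acid, was 84.8 in Cnot3KO and 172 in control cells at 0 h. Neither passed over the 3 times (limma, adjusted p = 0.0958 for Cyp7a1 and 0.0679 for Cyp8b1). Nr0b2 is itself listed as a target of Nr1h4 and Nr5a2. The 9 Nr5a2 targets, which share Cyp7a1 and Cyp8b1, held 3 that were lower and none that was higher, and the third was Abcb11, the bile salt export pump (172 in Cnot3KO and 260.4 in control cells). Among 15 Nr1h3 targets 1 was higher (Pltp, the phospholipid transfer protein, 338 in Cnot3KO and 215 in control cells) and 1 lower (Cyp7a1). The lipogenic regulator Srebf1 was 2443 in Cnot3KO and 1831 in control cells. Cyp7a1 (-1.71), Abca1 (-1.75) and Fasn (-0.85) passed as lower at 12 h of ActD and Smpdl3a (0.94) as higher (limma, adjusted p = 0.0264, 0.0190, 0.0456 and 0.0409).

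Of 26 kept targets of Nr1i2 and Nr1i3, 3 were higher and 3 lower by over 1.5-fold at 0 h, beside 6.87% and 2.99% of all genes. The lower ones were Cyp3a25 (198 in Cnot3KO and 405 in control cells), Cyp3a13 (979 in Cnot3KO and 1999 in control cells) and the sulfotransferase Sult1d1 (53.9 in Cnot3KO and 103 in control cells). The higher ones, named after their values were seen, were the transporter Abcc4 (2132 in Cnot3KO and 1288 in control cells) and the glutathione transferases Gstm1 (7094 in Cnot3KO and 4671 in control cells) and Gstm3 (690.2 in Cnot3KO and 457 in control cells). The Cyp3a genes are near copies of each other, so that a probe set can take signal from more than 1 of them. Of 30 Nr3c1 targets 1 was higher and 8 were lower by over 1.5-fold at 0 h. Over the 3 times limma gave 8 of the 30 as higher and 7 as lower at an unadjusted p under 0.05, beside 22.4% and 11.0% of all genes. G6pc, the last step of glucose release, was 32.8 in Cnot3KO and 334 in control cells at 0 h, and the glucocorticoid-induced Zbtb16 271 in Cnot3KO and 679.96 in control cells. Neither passed over the 3 times (limma, adjusted p = 0.054 for G6pc and 0.0585 for Zbtb16). In Cnot3KO cells G6pc was 29.0 at 6 h and 21.6 at 12 h. These G6pc values lay near the 20th percentile (19.7 to 20.2 on the Cnot3KO arrays), so the size of its difference is uncertain. Cps1, the entry enzyme of the urea cycle, was 1471, 973 and 651 in Cnot3KO cells, against 4155, 2609 and 3215 in control cells, and passed as lower (-1.74 ± 0.21, limma, adjusted p = 0.0499), a call also lost under those 5 alternatives. Zbtb16 (-1.73), Fkbp5 (-1.22) and Hif3a (-1.46) passed as lower at 12 h of ActD and Gadd45b (1.26) as higher (limma, adjusted p = 0.0260, 0.0278, 0.0298 and 0.0335). After 12 h of ActD 4 of the 30 were over 2-fold lower in Cnot3KO and 14 in control cells, beside 4.38% of all genes in Cnot3KO and 15.1% in control cells, with a median difference in change of 0.68.

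**Figure D4:**
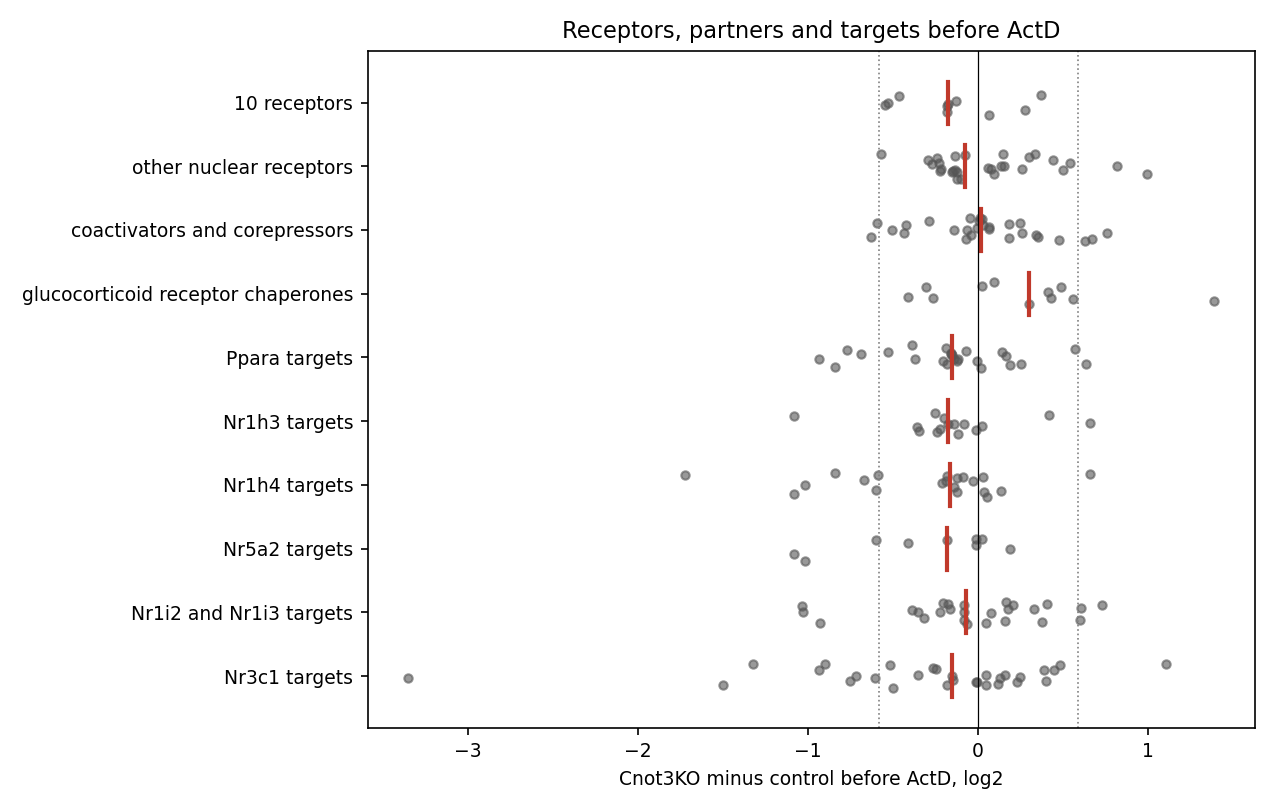
Cnot3KO minus control intensity (log2) before ActD for each kept gene of the 10 receptors, their relatives, partners and targets, with 1 grey point per gene, a red bar at the median and dotted lines at 1.5-fold. The 10 receptors lie inside the dotted lines, while the Nr1h4 and Nr3c1 targets reach -1.72 (Slc10a1) and -3.35 (G6pc).

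Markers of other liver cells moved beside these groups. At 0 h 4 of 12 macrophage markers were over 1.5-fold lower in Cnot3KO cells and none was higher, beside 2.99% and 6.87% of all genes. Over the 3 times 3 of the 12 passed as lower (Vsig4, Mrc1 and Cd163, limma), where 0.285% of all genes passed as lower and 0.703% as higher. The stromal marker Colec11 and the cholangiocyte markers Tspan8 and Pkhd1 also passed as lower, and the cholangiocyte markers Cldn4 and Cldn7 as higher (limma). All of these calls were lost under the same 5 alternatives. The 8 cholangiocyte markers kept had a median 0 h difference of 0.56, with 4 over 1.5-fold higher and 2 lower, beside 6.87% and 2.99% of all genes. The 9 with a probe set summed to between 36955 and 44585 in Cnot3KO and between 25318 and 30760 in control cells. This sum weighs bright sets most, such as Krt19 (14661 in Cnot3KO and 6691 in control cells at 0 h). Tspan8 went the other way (2168 in Cnot3KO and 5790 in control cells at 0 h). Hepatocyte markers summed to between 162150 and 170110 in Cnot3KO and between 160330 and 176290 in control cells. At 0 h none of the 9 passed 1.5-fold. At 12 h Apob was 1.70-fold and Ahsg 1.65-fold lower in Cnot3KO cells, and Hnf4a was 1.58-fold higher. Alb was the brightest value of its array at 0 h (34185 in Cnot3KO and 35595 in control cells). The sum therefore had little room to rise and is a weak measure of hepatocyte content. The part of these shifts in the receptor and target values was not tested.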

How the data were processed

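Total RNA of 6 samples, 1 for each genotype and time, had been hybridised to Affymetrix Mouse Genome arrays. Per the labels and methods the authors summarised probes with RMA, whose version is not given in the sources used here, and RMA corrects background and equalises the arrays. The values they deposited are intensities on a linear scale, and log2 was taken here. Of 45037 probe sets 34945 carried 1 gene symbol in the platform annotation, 932 several and 9160 none. Each gene was given by its brightest set with that symbol alone (18193 genes), and kept if above the 20th percentile of an array on at least 1 array compared (16499 genes over all arrays, 16110 at 0 h).

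Groups were taken from the labels. Differences at 0 h were called beyond 1.5-fold with no test. limma 3.58.1 in R 4.3.3 (lmFit, eBayes) fitted genotype and time for the genotype difference and the 12 h change, and genotype, hours and their product for the difference in change over 12 h, with Benjamini-Hochberg adjustment over all genes kept at 0.05. Both fits have 2 residual degrees of freedom and were tested on simulated data. The number of arrays, and the spread between probe sets of a gene, limit the precision. Alternatives were another filter, another choice of probe sets, centring on Gapdh, a pseudocount of 16, a trended prior and leaving out each time. The receptors and the lists of relatives, partners, targets and markers were chosen with earlier results of these data known. Genes named from the lists were taken from up to 3 per list with the largest 0 h difference among those above the array median and from those that passed a limma test. Promoter stretches came from a RefSeq table of build GRCm38.p6.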

Additional observations from a re-analysis of the deposited data

How the results depend on the processing

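Across the 10 receptors and all alternatives, of the values with a limma test 12 gained the threshold, 3 lost it and 10 changed sign. Of the 0 h values, which have no test, 2 moved by more than the spread between probe sets (SD 0.24), and Nr1h3 turned to -0.0056 with Gapdh centring. At 0 h, the receptors beyond 1.5-fold numbered 0, and 1 with the mean of all probe sets (Ppara, -0.67), 1 with sets free of a shared-sequence suffix (Rxra, -0.80) and 2 with Gapdh centring (Nr5a2, -0.60, and Nr2f2, -0.61), all lower in Cnot3KO cells. With the mean of all sets the Nr5a2 difference was -0.19.

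Over the 3 times limma called 163 genes. It called 0 with no filter, 0 with the 50th percentile, 0 with the pseudocount, 0 without the 6 h arrays and 0 without the 12 h arrays, beside 5761, 4887, 5484, 2187 and 3529 at an unadjusted p under 0.05. It called 1625 with the mean of probe sets, 649 without suffix sets, 2639 with Gapdh centring, 2063 with the trended prior and 5809 without the 0 h arrays. No receptor passed except 1 with Gapdh centring (Nr3c1, 0.75, limma, adjusted p = 0.0461) and 4 without the 0 h arrays. Differences that changed sign were all under 0.2 in size, for Ppara (-0.0049 with the mean of sets, -0.12 without the 12 h arrays), Nr1h3 (-0.080 with Gapdh centring, -0.060 without the 12 h arrays) and Nr2f2 (0.13 without the 0 h arrays).

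For the change over 12 h limma called 1116 genes, and 2153 with Gapdh centring. Of the receptors 2 passed, and 1 with no filter, 1 with the 50th percentile, 1 with the pseudocount, 3 without suffix sets (with Rxra, -1.27), 3 with the trended prior (with Nr1i2), 4 with the mean of sets and 5 with Gapdh centring, where Nr1h3 turned to 0.025. For the difference in change limma called 0 genes under each of its 7 alternatives. It turned for Rxra (0.15 with the mean of sets, 0.75 without suffix sets), Nr1h3 (-0.060) and Nr1i3 (-0.17), both with Gapdh centring. Nr1h3 and Nr1i3 have no set without a suffix. Taken apart, the difference was 1.47 from 0 to 6 h and 0.74 from 6 to 12 h for Nr1h4, 1.79 and 0.28 for Nr5a2, 0.69 and 0.40 for Ppara, 0.30 and 0.76 for Nr2f2, 0.29 and 0.90 for Nr3c1, 1.05 and -0.49 for Nr1i2, -0.45 and 0.26 for Rxra, -0.24 and 0.40 for Nr1h3, -0.22 and 0.15 for Nr0b2, and 0.07 and -0.03 for Nr1i3. The cause of these changes was not tested. No paired analysis was possible because each group holds 1 array and so no second replicate number, beyond time as a term, which the genotype fit already holds. Dim sets, such as those of Nr0b2 and Nr1i3, leave little room above background.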
